A study of Mus musculus with 6 samples.

Results

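The Smad family of the mouse was measured as 8 genes: Smad1, Smad2, Smad3, Smad4, Smad5, Smad6, Smad7 and Smad9. They were found by gene symbol among 24288 symbols of the RNA-seq table, in 11 rows, and each gene was represented by its 1 row with the highest total over the 6 libraries. The RNA came from day 2 epiblast-like cells (EpiLCs), which are embryonic stem cells (ESCs) that have been moved toward the state of the early postimplantation epiblast. Wild-type (WT) cells were the XY ESC line CCE of strain 129/Sv//Ev. Smad2/3 double-knockout (DKO) cells were clone KT15.1F6, derived from Smad2 tm1Rob/tm1Rob ESCs in which Smad3 exon 1 was removed from both alleles with Cas9 nickase and flanking guide pairs. Both genotypes had been kept in N2B27 medium with the inhibitors PD0325091 and CHIR99021 and with LIF, and were then grown for 48 h on fibronectin in N2B27 with Fgf2 (12 ng/ml), activin A (20 ng/ml) and knockout serum replacement. There were 3 separate differentiations of 1 line per genotype, so an effect of genotype and a property of this 1 clone cannot be told apart. The p-values measure the spread between differentiations of the same lines.

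Smads carry signals of the TGF-beta superfamily from receptor to nucleus. Smad2 and Smad3 are phosphorylated by activin, Nodal and TGF-beta receptors, and Smad1, Smad5 and Smad9 by Bmp receptors. Each kind joins the common partner Smad4 and enters the nucleus, where the complex binds DNA with other factors. Smad6 and Smad7 lack the receptor-phosphorylated tail and hold the pathway back, Smad6 mainly on the Bmp branch and Smad7 on both, and both are often induced by the signals that they dampen. In the epiblast, Nodal signaling through Smad2 and Smad3 holds the primed state and patterns the germ layers.

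The libraries held 57644143 to 63046034 reads over 1 row per gene. Values are reads counted over the whole gene body, introns included, divided by a size factor per library, and are called normalized reads here. A gene was called changed at an adjusted p under 0.05 with a fold change over 1.5 (limma, Benjamini-Hochberg over 17038 genes). Both genotypes expressed the EpiLC markers, with summed levels of 106625 to 110518 normalized reads in WT and 97956 to 99307 in DKO over 7 genes. Dnmt3b, a de novo DNA methyltransferase, averaged 70390 in WT and 65421 in DKO, and Pou5f1, which encodes Oct4, averaged 21846 and 20761. No EpiLC marker was at 0 in any group. Of the 7, 3 fell, where 8.04% of all genes did: the growth factor Fgf5 (3235 to 798, log2 fold change -2.02 ± 0.04) and the transcription factors Sox3 (-0.82 ± 0.07) and Pou3f1 (-0.62 ± 0.03). These 3 were named after their values were seen.

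All 8 Smads passed the filter on low values. Of these, 2 were called changed, Smad3 and Smad7, and both fell. Smad3 was deleted by design and both Smad2 alleles were targeted, so the counts over the 8 include engineered genes. Smad7 was the only called member that was not targeted. Among all genes tested, 15.4% were called changed, 8.04% as lower and 7.35% as higher. By adjusted p alone all 8 differed, 4 higher and 4 lower in DKO, where 53.4% of all genes did. In all 8 the 3 WT and 3 DKO values did not overlap, which was so for 59.0% of all genes. The 6 Smads that were not called had a median absolute log2 fold change of 0.22, and the median over all genes was 0.19.

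**Figure D1:**
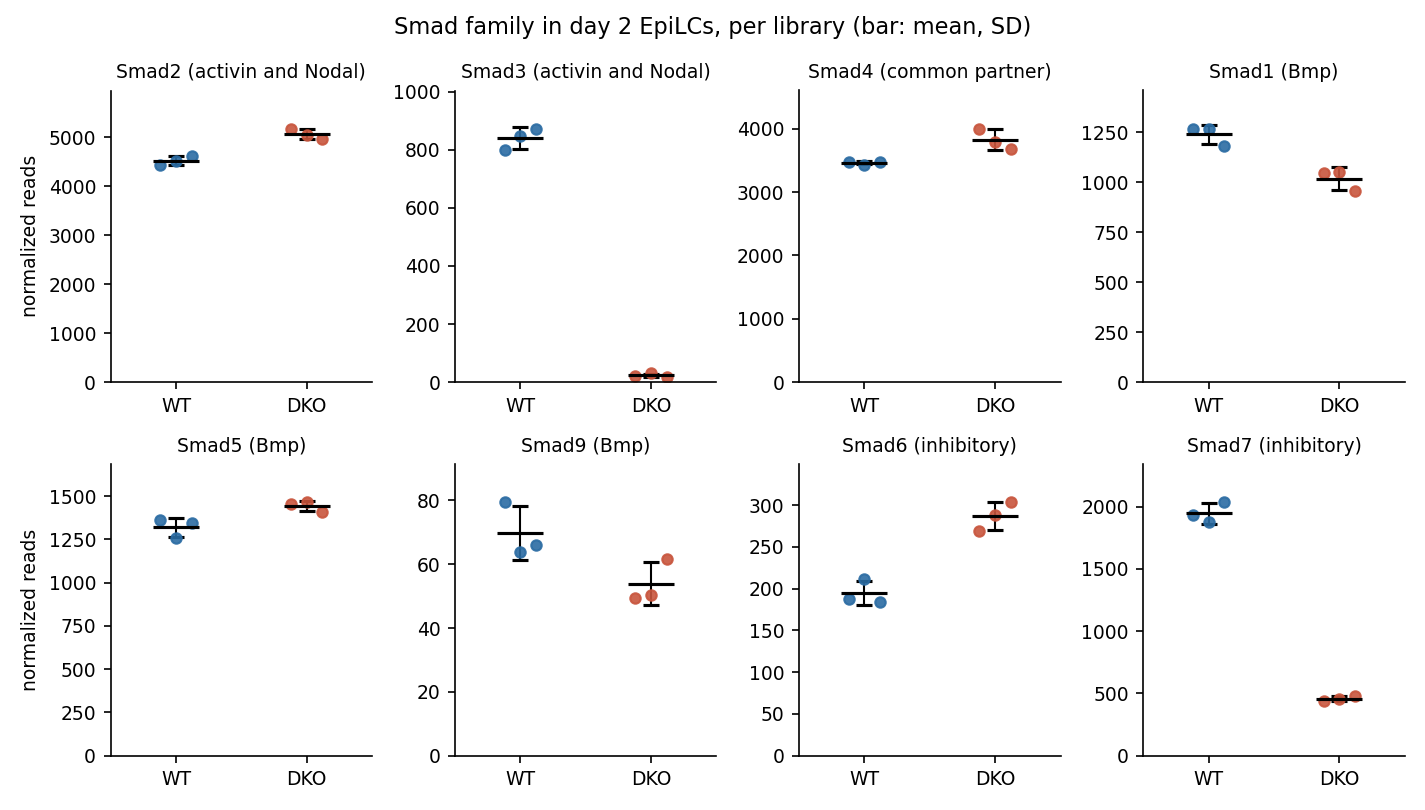
Normalized reads of the 8 Smads (y axis, from 0, scaled per gene) in 3 WT and 3 DKO libraries, 1 point per library, with the mean and SD as bars. Smad3 and Smad7 were far lower in DKO, Smad6 was higher, and the other 5 genes moved by smaller amounts, with no overlap of the 2 genotypes in any gene.

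To set the levels of different Smads against each other, normalized reads were divided by the length of the gene body. This length, like the coordinates given below for each Smad, is the RefSeq span of the whole gene and not of the single row. The matched GENCODE transcript was shorter for Smad5 (36.9 against 39.4 kb) and for Smad4 (64.8 against 69.0 kb). In WT cells Smad7 stood highest, at 68.1 ± 2.90 normalized reads per kb, followed by Smad2 at 64.0 ± 1.22 and Smad4 at 50.2 ± 0.33 (SD, n = 3). Smad5 reached 33.5 ± 1.40 and Smad1 20.3 ± 0.80. Smad3 (7.54 ± 0.33), Smad6 (2.82 ± 0.21) and Smad9 (1.51 ± 0.18) were the lowest. The libraries of neighbours in this order did not overlap, although Smad7 and Smad2 were only 1.06 times apart and their ranges did overlap when the length of the matched GENCODE transcript was used. Against 16921 tested genes with a position, WT Smad7 and Smad2 per kb were at percentiles 65.2 and 64.2, and Smad3 was at 33.9 and Smad9 at 17.6.

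The order depended on the length in use. Per kb of exon, Smad4 came first at 1023 ± 6.74, then Smad2 at 559 ± 10.7, Smad7 at 455 ± 19.4, Smad1 at 399.9 ± 15.7 and Smad5 at 289 ± 12.1. Smad3 (165 ± 7.27), Smad6 (65.5 ± 4.86) and Smad9 (13.0 ± 1.58) were again the lowest 3. The places of these 3 and of Smad2 were the same by either length, and those of Smad1, Smad4, Smad5 and Smad7 were not.

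In DKO cells the order per kb of gene body changed at both ends. Smad2 was first at 71.6 ± 1.54, followed by Smad4 at 55.4 ± 2.40 and Smad5 at 36.6 ± 0.76. Smad7 dropped from the first place to the fifth, at 16.0 ± 0.71, beside Smad1 at 16.7 ± 0.91, and these did not differ beyond their spread. Smad3 was the last of the family at 0.212 ± 0.055. Smad6 (4.16 ± 0.25) and Smad9 (1.17 ± 0.15) stood between. Per kb of exon, Smad4 stayed first in DKO at 1130 ± 49.0 and Smad2 stayed next at 626 ± 13.5. By that length Smad7 went from place 3 to place 5, at 107 ± 4.76, and overlapped Smad6 at 96.6 ± 5.75. Smad3 was last in DKO by either length.

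**Figure D2:**
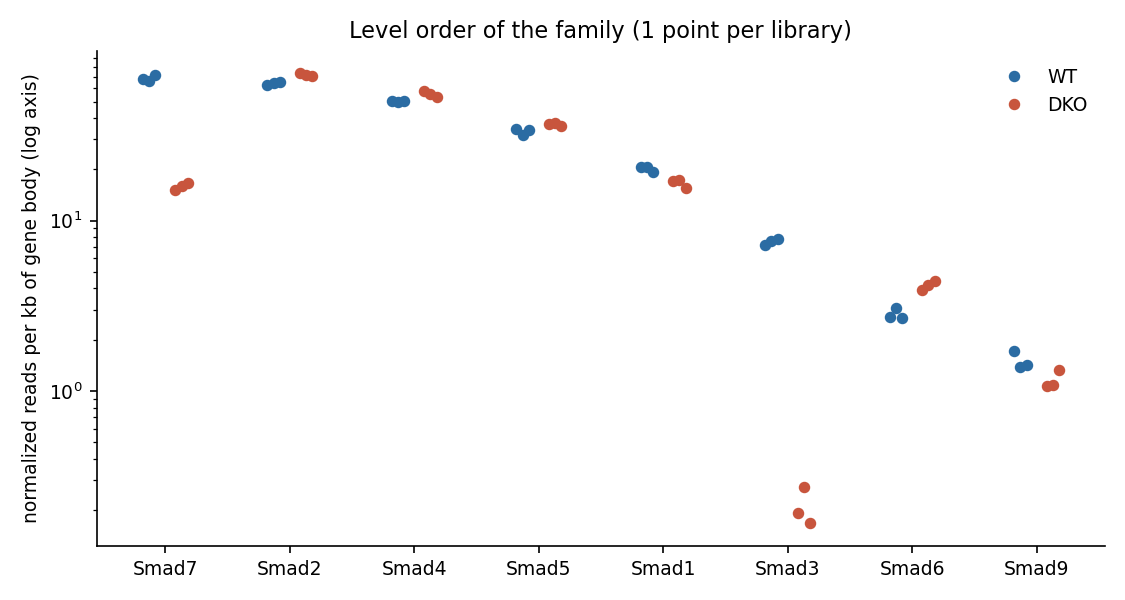
Normalized reads per kb of gene body (y axis, log scale) of the 8 Smads in WT order, with 1 point per library and 3 libraries per genotype. Smad7 was the highest gene in WT at 68.1 and was level with Smad1 in DKO, while Smad3 went from 7.54 to 0.212.

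Smad3, the activin and Nodal Smad that was targeted, lies at chr9:63646766-63757994 (mm10, minus strand, NM_016769, 111 kb). WT libraries held 799, 846 and 873 normalized reads and DKO libraries 21.5, 30.5 and 18.7. The DKO values rest on 40, 58 and 36 reads. Hence the labels of all 6 libraries fitted the level of the deleted gene, and a small number of reads remained. Smad3 fell by 5.12 ± 0.13 on the log2 scale (SE, limma adjusted p = 7.91e-22), and its DKO mean was 2.81% of WT. The Smad3 row overlaps the gene Gm51710, and the position of the remaining reads within the row was not analysed here.

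Smad2, its partner on the same branch, lies at chr18:76241090-76311748 (plus strand, NM_010754, 70.7 kb). Both Smad2 alleles were targeted in DKO cells, but gene-body reads were not lost. WT libraries gave 4438, 4513 and 4610 normalized reads and DKO libraries 5176, 5052 and 4958. Every DKO library was above every WT library, by a small margin. The log2 fold change was 0.16 ± 0.03 (SE, 95% interval 0.11 to 0.22, limma adjusted p = 2.27e-05), short of the 1.5-fold threshold. The part of Smad2 that the tm1Rob allele removes is not given in the sources used here, so these counts do not measure loss of the Smad2 product.

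A shorter Smad2 row, NM_001252481, lies within the longer one, which separates the gene into an inner part and its ends. Reads at the ends were 307, 315 and 306 in WT and 406, 457 and 499 in DKO, 1.47 times as many by the means. Reads in the inner part were 1.09 times as many. The gain was thus uneven along the gene, with no overlap of the genotypes at the ends; the difference between the parts was not tested.

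Whether the other genes of the branch made up for Smad3 was read from the sum of Smad2 and Smad3 per kb. The sum was 70.0, 71.5 and 73.1 in WT libraries and 73.4, 71.8 and 70.3 in DKO libraries. The ranges overlapped, with means of 71.5 ± 1.55 and 71.9 ± 1.55 (SD, n = 3 each). Smad3 made up 10.5% ± 0.245 of this sum in WT and 0.295% ± 0.076 in DKO. The level sums per kb of gene body thus overlapped, but in reads the gain of Smad2 was smaller than the loss of Smad3. Per kb of exon the sum was lower in every DKO library than in any WT library, with a log2 ratio of DKO to WT of -0.20. In DKO cells the Smad2 share comes from targeted alleles, and the sum counts reads, not working transcripts.

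Smad4, the partner that both branches need, lies at chr18:73634790-73703791 (minus strand, NM_008540, 69.0 kb). Its normalized reads were 3478, 3435 and 3471 in WT and 4003, 3797 and 3675 in DKO. The WT libraries were within 1 narrow band and each DKO library lay above it. The log2 fold change of 0.14 ± 0.03 (95% interval 0.08 to 0.21, limma adjusted p = 4.36e-04) was not called. Per kb of gene body, Smad4 stood at 0.395 ± 0.002 of the summed receptor-regulated Smads in WT and 0.439 ± 0.011 in DKO, without overlap. The size of this ratio depends on the length in use. In DKO its denominator includes Smad2 reads from targeted alleles.

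The 3 Bmp Smads did not move together. Smad1 (chr8:79338395-79399428, minus strand, NM_008539, 61.0 kb) gave 1267, 1268 and 1183 normalized reads in WT and 1047, 1053 and 953 in DKO. Its log2 fold change was -0.28 ± 0.05 (95% interval -0.38 to -0.19, limma adjusted p = 8.37e-06). Smad5 (chr13:56703010-56742378, plus strand, NM_001164041, 39.4 kb), a close relative with the same receptors, gave 1361, 1258 and 1342 in WT and 1453, 1466 and 1409 in DKO. Smad1 was thus lower and Smad5 higher in every DKO library. The log2 fold change of Smad5 was 0.13 ± 0.04 (95% interval 0.05 to 0.21, limma adjusted p = 8.94e-03), and without WT replicate 2 its adjusted p was 0.0813. The ratio of Smad1 to Smad5 per kb of gene body went from 0.606 ± 0.041 to 0.455 ± 0.016 (SD, n = 3 each), and the libraries did not overlap. Per kb of exon, Smad1 stood above Smad5 in WT (399.9 and 289). In DKO the 2 genes overlapped by that length (328 and 316).

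Smad9 (chr3:54755455-54801662, plus strand, NM_019483, 46.2 kb), the third Bmp Smad, was scarce in both genotypes. Its normalized reads were 79.5, 63.7 and 66.1 in WT and 49.5, 50.4 and 61.7 in DKO. The highest DKO library came close to the lowest WT library. The log2 fold change was -0.37 ± 0.15 (95% interval -0.68 to -0.05, limma adjusted p = 0.0444). Over 15 other fits the adjusted p ran from 0.0227 to 0.195 and was 0.05 or more in 8 of them, among them DESeq2 (0.0848) and the fit without WT replicate 1 (0.195). A difference in Smad9 was therefore not settled by these libraries. None of the 3 Bmp Smads reached the 1.5-fold threshold.

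Per kb of gene body, the summed Bmp Smads were level between genotypes. The summed values were 57.1, 54.1 and 54.9 in WT and 55.1, 55.6 and 52.7 in DKO, with overlapping ranges. Their ratio to summed Smad2 and Smad3 per kb was 0.774 ± 0.035 in WT and 0.758 ± 0.014 in DKO (SD, n = 3 each), again with overlap. On exon length the Bmp sum was lower in every DKO library than in any WT library, with a log2 ratio of DKO to WT of -0.10. For the ratio of the branches this log2 ratio was 0.10, in the opposite direction to gene-body length. In DKO nearly all of the activin side was Smad2 reads from targeted alleles.

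The inhibitory Smads parted. Smad6 (chr9:63953076-64022085, minus strand, NM_008542, 69.0 kb), the Bmp-selective inhibitor, gave 188, 211 and 185 normalized reads in WT and 270, 288 and 304 in DKO. Each DKO library was well above the WT range. The log2 fold change was 0.56 ± 0.08 (95% interval 0.39 to 0.73, limma adjusted p = 2.26e-06), just under the threshold of 0.58 on this scale. Smad6 passed the threshold without WT replicate 2, at 0.62, and without DKO replicate 1, at 0.60, and was not called in the other 14 fits tried. It was the member with the largest gain in DKO.

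Promoter sequences were taken from RefSeq (GRCm38.p6), in which 5 of 8 members matched by symbol: Smad1, Smad3, Smad5, Smad6 and Smad9. The windows of 300 bases around each start were searched on both strands for 3 Smad-binding motifs, the palindrome GTCTAGAC, the CAGA box core CAGAC and the GC-rich element GGCGCC, none of which contains another. The palindrome occurs in 0.213% of all 32851 promoters, CAGAC in 49.6% and GGCGCC in 11.9%. Smad6 held the palindrome, across its RefSeq start, and no other motif. The RefSeq starts of Smad6 and Smad9 are those of the GENCODE transcripts matched to their rows. They lie inside the wider gene spans used here for length. Smad3 and Smad1 held none of the 3. Smad9 held 1 GGCGCC, and Smad5, with 3 annotated starts, held 1 GGCGCC site, which lies in 2 overlapping windows, and 1 CAGAC in the third window. Both promoters below are shown 5' to 3' on the gene's strand because Smad3 was the deleted gene and Smad6 the member with the largest gain: Smad3 at chr9:63757995-63758244 is the 250 bases before the start, and Smad6 at chr9:64022056-64022309 adds the 4 bases after it. Capitals mark the palindrome. A match is a description of letters and not evidence of binding.
Smad3: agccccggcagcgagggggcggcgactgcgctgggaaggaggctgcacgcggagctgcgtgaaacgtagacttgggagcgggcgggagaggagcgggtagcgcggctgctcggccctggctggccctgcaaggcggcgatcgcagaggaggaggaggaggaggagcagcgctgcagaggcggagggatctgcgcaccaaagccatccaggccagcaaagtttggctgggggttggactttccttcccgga
Smad6: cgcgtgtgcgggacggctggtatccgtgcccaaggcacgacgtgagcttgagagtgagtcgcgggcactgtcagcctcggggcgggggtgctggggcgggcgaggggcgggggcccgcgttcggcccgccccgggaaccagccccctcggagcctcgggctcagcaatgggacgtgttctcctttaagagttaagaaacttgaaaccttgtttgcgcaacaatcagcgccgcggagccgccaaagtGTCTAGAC

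Smad7, the inhibitor of both branches and a common feedback target of TGF-beta signals, was the second gene called. It lies at chr18:75367365-75395935 (plus strand, NM_001042660, 28.6 kb), and its row overlaps the gene Gm41776. WT libraries gave 1930, 1872 and 2036 normalized reads and DKO libraries 435, 459 and 475. The genotypes were far apart, with little spread in either. Smad7 fell by 2.09 ± 0.05 on the log2 scale (SE, limma adjusted p = 1.16e-22) and was called in each of 16 other fits, where the log2 fold change lay between -2.12 and -2.06.

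The summed level of the inhibitory Smads was thus lower in DKO and changed in make-up, although Smad6 itself was higher. Smad6 and Smad7 summed per kb to 70.3, 68.6 and 73.9 in WT and to 19.1, 20.2 and 21.0 in DKO. The DKO mean was 0.284 of WT. By this length Smad7 made up most of the sum in both genotypes, so the sum largely follows Smad7. Per kb of exon the log2 ratio of DKO to WT for the sum was -1.36. The ratio of Smad6 to Smad7 per kb of gene body rose from 0.0415 ± 0.0047 to 0.260 ± 0.004 (SD, n = 3 each), a 6.27-fold change, with no overlap. The size of this ratio depends on the length in use, but its fold change does not. Per kb of exon, Smad6 and Smad7 were at 65.5 and 455 in WT. In DKO they were at 96.6 and 107 by that length, and their libraries overlapped. Inhibitory Smads stood at 0.559 ± 0.017 of the receptor-regulated Smads per kb of gene body in WT and at 0.160 ± 0.011 in DKO. The DKO denominator includes Smad2 reads from targeted alleles. Sums and ratios are given as values only, since the genes in them were chosen with results known.

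**Figure D3:**
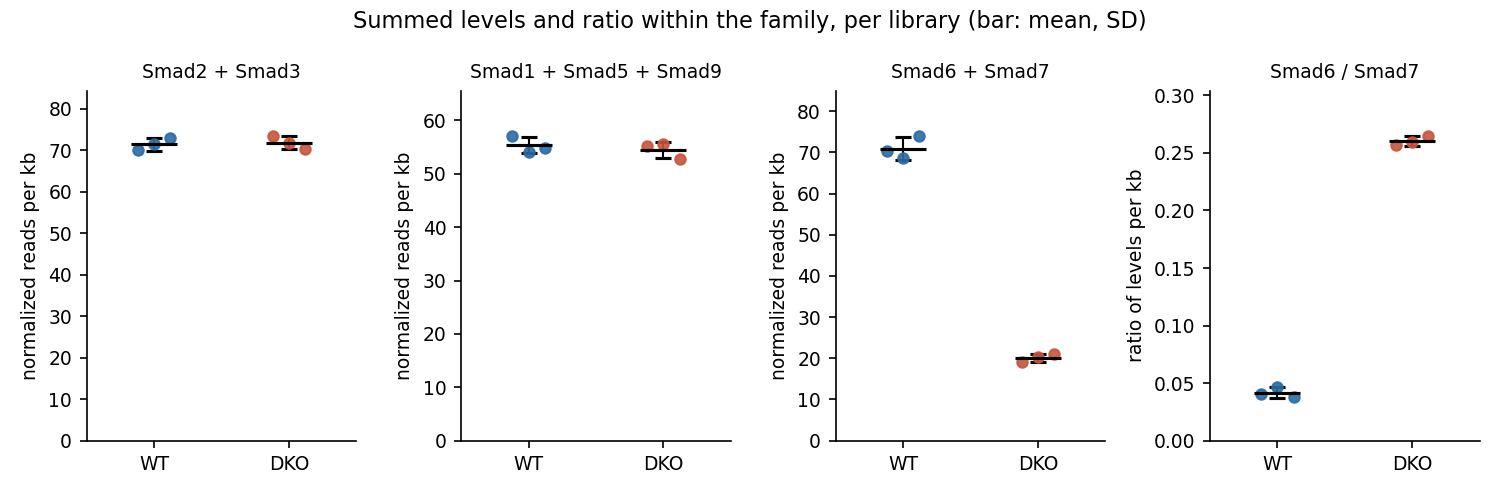
Summed normalized reads per kb of gene body for the activin and Nodal Smads, the Bmp Smads and the inhibitory Smads, and the ratio of Smad6 to Smad7 per kb (y axes from 0), with 1 point per library and the mean and SD as bars. The first 2 sums overlapped between WT and DKO, the inhibitory sum went from 70.9 to 20.1, and the ratio went from 0.0415 to 0.260.

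**Figure D4:**
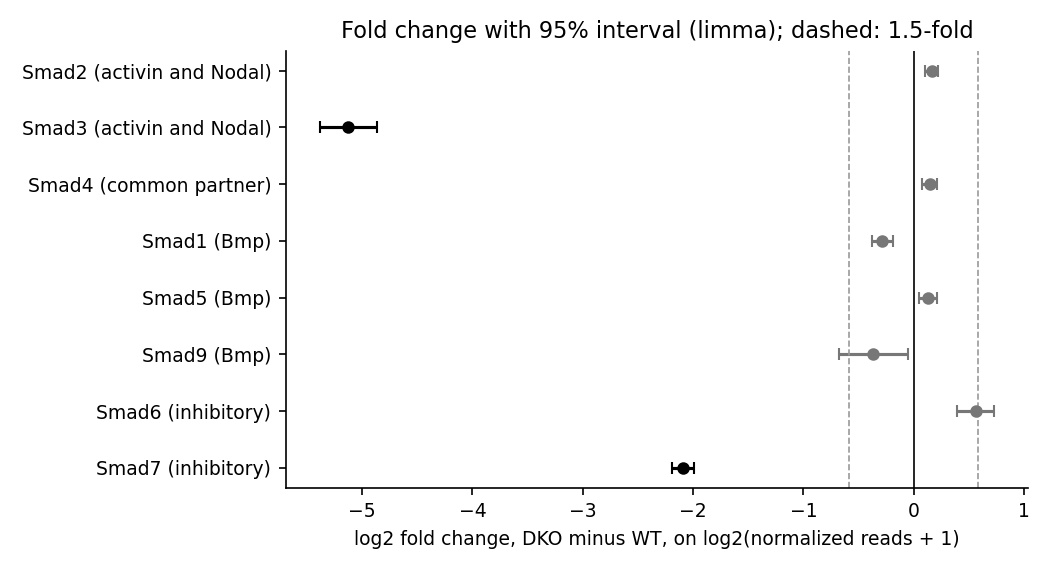
Log2 fold change (DKO minus WT, x axis) of each Smad with its 95% interval from limma, black where called and grey where not, and dashed lines at 1.5-fold. Only Smad3 at -5.12 and Smad7 at -2.09 lay beyond the dashed lines; the interval of Smad6, around 0.56, crossed the upper line and that of Smad9, around -0.37, crossed the lower.

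Several Smads share a chromosome. Smad3 and Smad6 are 195 kb apart with no tested gene between them, and Smad7 and Smad2 are 845 kb apart. To see whether the values moved with their surroundings, the 5 tested genes on each side were examined, other Smads left out. Beside Smad3 the median log2 fold change of 9 flanking genes was -0.02 with 1 called, Skor1 at 0.73, and Aagab, 2.18 kb away, had 0.12 ± 0.03. Beside Smad7 it was 0.05 over 9 genes, none of them called, and Ctif, 35.3 kb away, had 0.08 ± 0.07. Beside Smad6 it was -0.03, again with none of 9 called. Most of these genes also flank Smad3, so the 2 sets are not separate, and Smad7 and Smad2 share flanking genes as well. The fall of Smad3 and Smad7 and the higher Smad6 level were therefore not shared by the genes around them.

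The flanks of the other 5 were similar. The median log2 fold change of the flanking genes was 0.08 beside Smad2, 0.04 beside Smad4, 0.01 beside Smad1, 0.01 beside Smad5 and -0.11 beside Smad9. Of the flanking genes of these 5, at most 2 per Smad were called, Zfp827 and Hhip beside Smad1, Stard6 beside Smad4, H2afy beside Smad5 and Sohlh2 beside Smad9. The values of all 5 lay within the range of their flanking genes. Smad9 and its nearest neighbours leaned the same way, with Alg5 at -0.11 ± 0.05 and Rfxap at -0.25 ± 0.09.

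**Figure D5:**
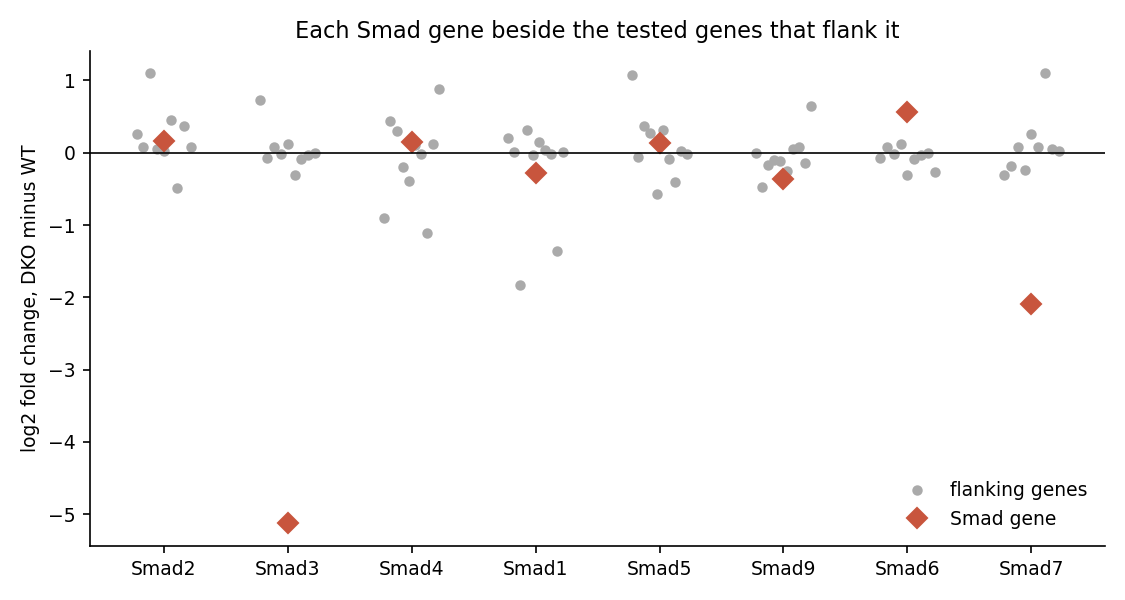
Log2 fold change (DKO minus WT, y axis) of each Smad (diamond) and of up to 5 tested genes on each side of it (grey points, other Smads left out). Smad3 and Smad7 lay below all of their flanking genes and Smad6 lay above all of its own.

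The genes whose profiles were most like those of the called members were sought among 11930 genes by Pearson's r over the 6 libraries. For Smad7 they were Fam19a4 and Aadat, with log2 fold changes of -2.02 ± 0.11 and -2.05 ± 0.11 and r of 1.00 for both. For Smad3 they were 1810009A15Rik and Lbhd1, whose r was also 1.00 but whose log2 fold changes were only -0.22 ± 0.03 each. The measure takes shape and not size into account, and all 6 points fall into the 2 genotypes, so many genes that differ between genotypes score highly.

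Genes that act directly on Smads were counted next, from lists of known roles. Of 11 tested type I and type II receptors of the superfamily, 1 fell, Bmpr1b, a Bmp type I receptor (log2 fold change -0.99 ± 0.11), and none rose; the median was -0.03. Of 17 ubiquitin ligases, deubiquitinases and phosphatases that mark, spare or dephosphorylate Smads, none was called by limma, edgeR, DESeq2 or limma-voom, although 12 had an unadjusted p under 0.05 in limma. Of 10 anchors, importins, exportins and nuclear envelope proteins, none was called by these 4 tools either, with 7 at an unadjusted p under 0.05. The medians of these lists were 0.06 and -0.06, beside 0.00 for all genes. Beside these counts stand the 15.4% of all genes that were called and the 53.4% at an adjusted p under 0.05, which 7 of 11, 11 of 17 and 7 of 10 of the listed genes also met.

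Among 15 nuclear partners, co-activators and corepressors, 3 were called, a share close to the 15.4% of all genes. The corepressor Ski fell by 1.10 ± 0.03 on the log2 scale and its relative Skil fell by 0.62 ± 0.02, whereas the co-activator Ncoa3 rose by 0.77 ± 0.03. The median of the list was -0.11, and Skil is also in the list of Nodal and activin targets.

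Downstream genes of each branch were counted beside the Smads. Of 10 tested Nodal and activin target genes, 7 were called lower, where 8.04% of all genes were, and none was called higher (median -1.24). Nodal itself, not called, was higher in DKO (0.29 ± 0.04). The greatest falls were in the secreted Nodal inhibitors Lefty1 (-7.22 ± 0.05) and Lefty2 (-7.21 ± 0.09), in the growth factor Fgf8 (-4.87 ± 0.26) and in Pmepa1 (-4.15 ± 0.10), a membrane protein that sequesters Smad2 and Smad3. Of 10 tested Bmp target genes, 8 rose, where 7.35% of all genes did, and 1 fell (median 2.07). Id1 (6.51 ± 0.06), Id3 (4.42 ± 0.06), Id2 (2.35 ± 0.05) and Dlx5 (2.22 ± 0.37) rose most. Hey1 fell (-1.39 ± 0.25), and Bambi, not called, was lower in DKO (-0.20 ± 0.06). Smad6 and Smad7 are commonly grouped with such feedback targets. In these cells Smad7 fell, as most of the first list did. Smad6, not called, was higher, as most but not all of the second list was. Whether either Smad follows a branch was not tested.

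Markers of other cell states moved with the genotype as well. Beside the counts below, 7.35% of all genes were called higher and 8.04% lower. The summed level of 10 naive ESC markers was 3916 to 4144 normalized reads in WT and 6735 to 6972 in DKO, and 8 of 10 rose. Tbx3, among these 8, is also in the list of Bmp targets. Zfp42 averaged 1599 and 2455, and Esrrb, not called, 718 and 814. The summed level of 9 trophectoderm and extra-embryonic ectoderm markers was 234 to 255 in WT and 850 to 1030 in DKO, and 7 of 8 tested rose, with Tfap2c at 67.5 and 390 and Ascl2 at 79.9 and 245. Extra-embryonic endoderm markers summed to 105 to 126 and 174 to 189 over 9 genes, and 2 of 6 tested rose, Pdgfra (36.8 and 83.3) and Gata6 (13.8 and 32.9). Of the other 4, none called, Gata4 had a log2 fold change of 0.55, Sox17 -0.58, Afp -0.38 and Foxa2 -0.29, and the median of the list was 0.13. Fibroblast markers summed to 1575 to 1663 and 478 to 522 over 8 genes, with 2 of 5 tested lower, Dcn (1330 and 300.4) and Col1a2 (174 and 82.7). Dcn alone made up most of this sum in both genotypes. Of the other 3, none called, Col1a1 had a log2 fold change of -0.53, Col3a1 0.36 and Thy1 0.11. The median of the list was -0.53. No marker of these lists was at 0 in all 6 libraries. In bulk RNA, fewer cells of a type and less RNA per cell cannot be told apart, and the part of these cell states in the Smad values was not tested.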

How the data were processed

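Total RNA of 6 EpiLC samples was depleted of ribosomal RNA and sequenced from stranded paired-end libraries. The authors filtered out rRNA reads (Bowtie2), mapped the rest to mm10 (STAR), dropped duplicates (SAMtools) and counted over RefSeq gene bodies. Versions and the strand setting are not given in the sources used here. The deposited values are a signal, read counts divided by a DESeq2 size factor per library. Each was a whole number of reads times 1 constant per library (tolerance 0.001 reads), so reads were recovered. Of 118 genes lying in an intron of a gene on the same strand, the host had at least as many reads in all libraries in 115, and of 46 on the opposite strand in 15, as counts that include introns and follow strand would give. The authors' own comparison table holds fold changes and p-values and was not used.

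Of 33812 rows, 138 without a symbol (0.517% of reads) were left out. Each symbol kept its row with the highest total. After edgeR's filterByExpr, limma 3.58.1 (trend) was run in R 4.3.3 on log2(value + 1), two-sided, with 3 WT against 3 DKO. Fold changes are on this scale, which understates those of low genes. The steps were tested on simulated counts. Alternatives were edgeR 4.0.16, DESeq2 1.42.0, limma-voom, TMM, other pseudocounts (10 and 0.1), no filter, all rows, a replicate block, a test against 1.5-fold, and leaving out each library. The members and lists were chosen with earlier results of these data known. Named genes are the 8 members, up to 4 called genes per pathway or target list with the largest change, the 2 highest genes per cell type list, the nearest tested genes, and the 2 most alike genes of each called member. Called flanking genes and further members of the target and cell type lists were named after their values were seen.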

Additional observations from a re-analysis of the deposited data

How the results depend on the processing

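Over 16 alternatives per Smad (128 values), no Smad changed direction, and calls changed for Smad6 alone. The Smad6 log2 fold change was 0.62 without WT replicate 2 and 0.60 without DKO replicate 1, both called, and leaving out each library gave 0.52 to 0.62. Without a fold-change threshold 9098 genes passed, and a test against a 1.5-fold change itself passed 1115, beside 2623 in the report; leaving out each library gave 2529 to 2610. The number of receptors called was 1 to 2 when each library was left out, the second being Tgfbr2 without DKO replicate 1. TMM moved the median of all genes from 0.0001 to -0.0032.

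Per kb of exon, WT levels were 399.9 for Smad1, 559 for Smad2, 165 for Smad3, 1023 for Smad4, 289 for Smad5, 65.5 for Smad6, 455 for Smad7 and 13.0 for Smad9, and the ratio of Smad2 to Smad3 was 3.39 in place of 8.49. With the GENCODE transcript span, an alternative added after seeing the data, Smad4 was 53.4 and Smad5 was 35.8. On exon length the log2 ratio of DKO to WT was -0.20 for summed Smad2 and Smad3, which reversed its direction, -0.10 for the Bmp Smads, -1.36 for the inhibitory Smads and 0.10 for the ratio of Bmp to activin Smads, which also reversed. When each library was left out, these values ran from -0.0093 to 0.0226 for summed Smad2 and Smad3 (below 0 without WT replicate 1 or DKO replicate 1) and from -0.0520 to 0.0080 for the ratio of Bmp to activin Smads (above 0 without WT replicate 1). On gene-body length both stayed within the spread of the libraries.

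Same-numbered replicates of the 2 genotypes did not deviate together (r = 0.0088, -0.0293 and 0.0365 over 11930 genes), so the numbers do not pair the samples. With a replicate block 2602 genes changed, and the block changed no call among the Smads. Apart from the deleted Smad3 in DKO, Smad9 rests on the fewest reads, at under 80 normalized reads in every library; whether depth or the spread between libraries sets its error was not tested.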
